A study of Mus musculus with 12 samples.

Results

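Liver expression of 4 genes of flavin-containing monooxygenases, Fmo1, Fmo2, Fmo4 and Fmo5, was examined in mice under caloric restriction (CR) and in control mice fed ad libitum (Con). The 4 genes were picked by their symbols from the 24537 genes of the deposited table. They were proposed with the difference between CR and Con mice already known, so that difference is described by its size and error. Calls on it are given only as counts beside the share of all genes, or by setting without such a share. The RNA-Seq libraries came from 12 male C57Bl/6J mice housed one to a cage and 6 weeks old at the start. The CR mice received 30% less food than Con mice ate. Livers were taken after 25 or 30 days, from 3 mice per diet and day. According to the study's methods, the CR food was a fortified form of the Con chow, given daily at noon. Amount, chow and meal timing thus cannot be told apart here. The methods also state that mice were given heavy water in the days before sacrifice. Each library is a separate mouse, and the mice shared strain, sex, housing and sequencing lane.

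Flavin-containing monooxygenases sit in the membrane of the endoplasmic reticulum. Each holds an FAD, takes electrons directly from NADPH, and uses molecular oxygen to oxygenate soft nucleophiles, mostly the nitrogen or sulfur of drugs, dietary amines and thiols. FMO1 is a broad amine and sulfur oxygenase that also turns hypotaurine into taurine, FMO2 is best known from lung, FMO4 is the least studied of the 4, and FMO5 is abundant in liver and carries out Baeyer-Villiger oxidations of ketones rather than the classic amine oxidations. In mouse liver, FMO expression depends on sex and hormones, and FMO genes are among those that respond to dietary restriction.

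The deposited table places Fmo1, Fmo2 and Fmo4 on the minus strand of chromosome 1 in mm10, and Fmo5 on the plus strand of chromosome 3. Fmo4 spans bases 162793883 to 162812549, Fmo1 bases 162829561 to 162860000, and Fmo2 bases 162875047 to 162898712. Fmo5 spans bases 97628838 to 97655287. Reads were counted on exons, and the exon length used was 2205 bases for Fmo1, 3325 for Fmo2, 1776 for Fmo4 and 5175 for Fmo5. The table's transcripts of Fmo2, Fmo4 and Fmo5 matched GENCODE M21 transcripts of 9 exons each, and no other GENCODE gene overlapped any of the 4. The matched transcripts were 4066, 1787 and 5197 bases long, so the length used for Fmo2 was shorter than its match. Fmo1 had no matched transcript. Levels compared between genes depend on the lengths used. In the longest GENCODE transcript of each gene, 0 of the stretches of 31 bases were found in transcripts of other FMO genes, so no exact stretch of that length was shared between them.

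Levels are given as FPKM, which divides exonic reads by exon length and by library depth. Genes of different length can so be compared, as far as the lengths used hold. Fmo5 was the highest of the 4 genes in every liver, followed by Fmo1, while Fmo2 and Fmo4 were far lower. At day 25 the Con levels of Fmo5 and Fmo1 touched, since the lowest Fmo5 value (104 FPKM) lay below the highest Fmo1 value (105 FPKM). In the other 3 groups every Fmo5 value exceeded every Fmo1 value. Fmo2 and Fmo4 overlapped in Con livers at day 30, and in the other 3 groups all Fmo2 values were above all Fmo4 values. By group mean, Fmo5 ranked 470 among the 10593 genes tested in Con livers at day 25 and 159 in CR livers, and it moved from rank 372 to 135 at day 30. The reads behind a value numbered 9923 to 54144 for Fmo5, 3354 to 7995 for Fmo1, 244 to 4035 for Fmo2 and 117 to 220 for Fmo4, so Fmo4 was measured least precisely.

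**Figure D1:**
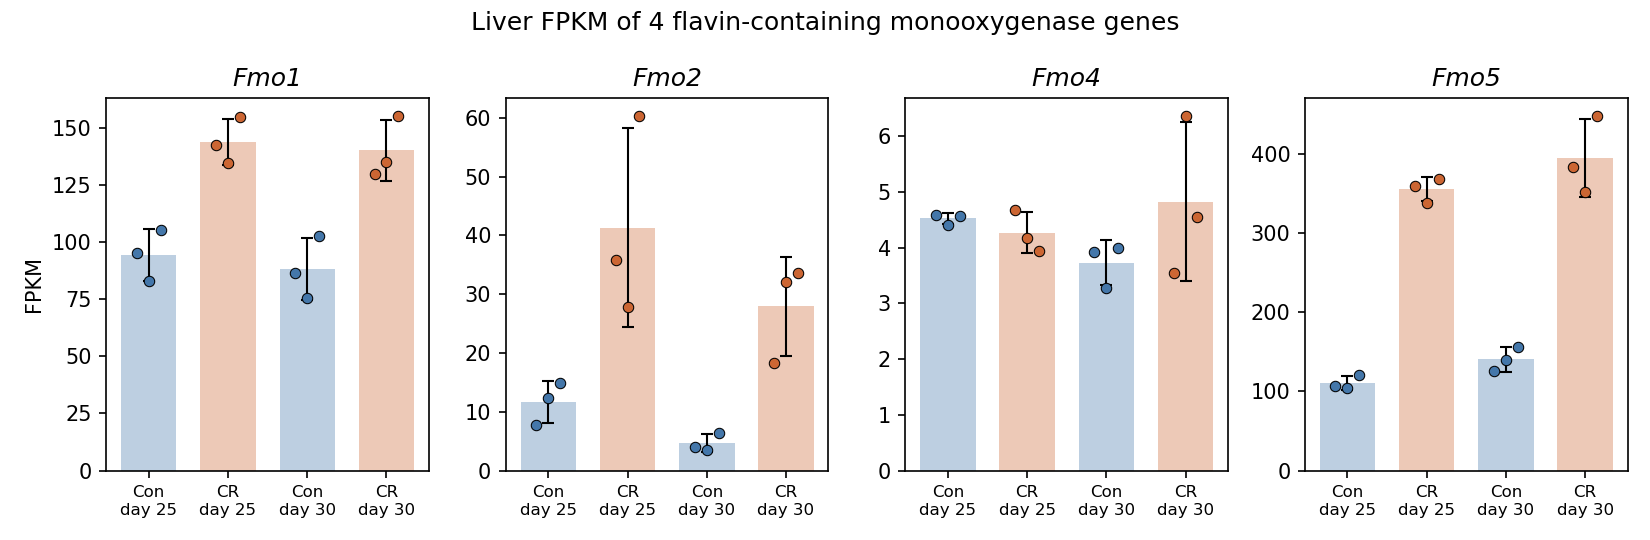
FPKM of Fmo1, Fmo2, Fmo4 and Fmo5 (vertical axes, each from 0 and with its own range) in Con (blue) and CR (orange) livers at day 25 and day 30. Points are mice, bars are means of 3 mice and error bars are SD. All CR points of Fmo1, Fmo2 and Fmo5 lie above all Con points, and those of Fmo4 overlap.

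Fmo5 was about 3 times as high in CR as in Con livers at both days. The Con values at day 25 were 107, 104 and 121 FPKM (111 ± 8.76, mean ± SD, n = 3), and the CR values were 359.6, 338 and 368 FPKM (355 ± 15.2). At day 30 the Con values were 125, 139.7 and 156 FPKM (141 ± 15.6), and the CR values were 383, 352 and 448 FPKM (394 ± 49.2). The diets did not overlap on either day, and the lowest of the 6 CR values was 2.16 times the highest of the 6 Con values. The ratio of mean FPKM, CR over Con, was 3.21 at day 25 and 2.81 at day 30. The log2 fold change of FPKM + 1 was 1.68 (SE 0.12) and 1.48 (SE 0.12) at the same days, and 1.58 (SE 0.085) over both. In the order of all 10593 genes by the size of that last rise Fmo5 stood at place 24.

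Fmo2 had the largest relative difference of the 4 and the widest spread among mice of a group. At day 25 the Con values were 7.79, 12.3 and 14.9 FPKM (11.7 ± 3.58, n = 3), and the CR values were 35.8, 27.7 and 60.3 FPKM (41.3 ± 17.0). At day 30 they were 4.08, 3.44 and 6.44 FPKM in Con mice (4.66 ± 1.58) and 18.2, 32.0 and 33.6 FPKM in CR mice (27.9 ± 8.43). The diets were apart on each day, and the lowest CR value over both days (18.2 FPKM) was 1.23 times the highest Con value (14.9 FPKM). Mean FPKM was 3.54 times as high in CR as in Con mice at day 25 and 6.00 times at day 30. The log2 fold change was 1.71 (SE 0.31) at day 25, 2.34 (SE 0.31) at day 30 and 2.03 (SE 0.23) over both days, the last being place 11 among all rises. The highest value of a group exceeded its lowest by 1.84 to 2.17 times for Fmo2, against 1.09 to 1.27 times for Fmo5.

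The sequence before 1 of the 2 RefSeq starts of Fmo2 is shown, because Fmo2 had the largest relative difference and because, of the windows matched to these genes, only this one overlaps no GENCODE exon. It is the 250 bases upstream of that start (GRCm38.p6, the assembly of mm10, chr1:162898759-162899008, minus strand, written 5′ to 3′ along the gene).

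Fmo2 upstream: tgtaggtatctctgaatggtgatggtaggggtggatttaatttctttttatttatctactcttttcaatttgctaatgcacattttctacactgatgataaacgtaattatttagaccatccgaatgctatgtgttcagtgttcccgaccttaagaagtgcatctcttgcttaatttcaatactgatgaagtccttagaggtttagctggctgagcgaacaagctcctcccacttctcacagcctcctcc

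None of 5 short motifs was found in it on either strand, so no letters are capitalised. The motifs were STAT5 (TTCNNNGAA, held by 7.02% of 32851 RefSeq promoters), the HNF4 core (CAAAGT, 12.6%), the core of the glucocorticoid receptor site (AGAACA, 16.1%), the xenobiotic response element core (GCGTG, 28.2%) and the TATA box (TATAAA, 12.4%). These shares count windows of 250 bases before each start. G and C made up 39.6% of the Fmo2 window, compared with a median of 52.4% over all promoters. This says only that these letters are not in this window. The other windows are not printed. That of the second Fmo2 start held the HNF4 core starting 33 bases and the glucocorticoid receptor core starting 125 bases before the start. That of Fmo5 held a TATA box starting 195 bases before its start, and that of Fmo4 held none of the 5. The HNF4 core and the TATA box were found as their reverse complements (ACTTTG and TTTATA). These 2 starts lie inside the gene spans given above, by 219 bases for Fmo2 and 181 bases for Fmo5. The RefSeq table matched 3 of the 4 genes.

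Fmo1 was about 1.5 times as high in CR livers, a smaller difference than those of Fmo5 and Fmo2. At day 25 the Con values were 95.3, 82.8 and 105 FPKM (94.4 ± 11.3, n = 3) and the CR values 143, 134 and 155 FPKM (144 ± 10.1). At day 30 the Con values were 86.5, 75.6 and 103 FPKM (88.3 ± 13.6) and the CR values 129.9, 135 and 155 FPKM (140.1 ± 13.4). The diets did not overlap, and the lowest CR value was 1.23 times the highest Con value over both days. The CR over Con ratio of mean FPKM was 1.52 at day 25 and 1.59 at day 30. The log2 fold change was 0.61 (SE 0.13) at day 25, 0.67 (SE 0.13) at day 30 and 0.64 (SE 0.090) over both days, which is under the 2-fold threshold.

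Fmo4 was low in all 12 livers and its diets overlapped at both days. At day 25 the Con values were 4.59, 4.41 and 4.58 FPKM (4.53 ± 0.099, n = 3) and the CR values 4.67, 4.18 and 3.95 FPKM (4.27 ± 0.37). At day 30 the Con values were 3.93, 3.27 and 4.0 FPKM (3.73 ± 0.40) and the CR values 3.55, 6.37 and 4.56 FPKM (4.83 ± 1.43). A single CR mouse at day 30 (6.37 FPKM) stood above the other 11 livers. The log2 fold change was -0.071 (95% interval -0.38 to 0.24) at day 25, 0.27 (-0.037 to 0.59) at day 30 and 0.10 (-0.13 to 0.34) over both days. A 2-fold difference lies outside all 3 intervals, while some smaller differences lie inside. At day 30 Fmo4 passed an adjusted p of 0.1 with quantile normalization (log2 fold change 0.37) and without 1 CR mouse (0.44). With all mice in the deposited scaling it did not pass.

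The choice of the genes rested on the CR against Con contrast, so the following counts describe them and test nothing. In the limma fit of all genes, 3 of the 4 were on the higher side of a Benjamini-Hochberg adjusted p of 0.1, at each day and over both, and 0 on the lower side. Of all genes tested, 5.6% were higher by that threshold at day 25, 8.33% at day 30 and 14.5% over both days, and 9.34%, 16.4% and 26.1% were lower. Fmo2 and Fmo5 were also at least 2-fold higher, which held for 0.84%, 0.925% and 0.821% of genes in the same order. Over both days all 6 CR livers lay above all 6 Con livers for Fmo1, Fmo2 and Fmo5, as for 3.82% of genes. Within single days the share of genes so separated was 10.2% (day 25) and 12.1% (day 30). The median log2 fold change of the 4 genes over both days was 1.11, against -0.054 for all genes tested. In bulk liver RNA, more cells of a type and more RNA per cell cannot be told apart.

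Markers of cell types also differed between the diets. The summed FPKM of 8 hepatocyte markers, among them albumin, was 42039.8 to 56754 in Con and 57538 to 68553 in CR livers, which does not overlap. Albumin itself made up most of this sum, and of the 8 markers 3 were higher and 3 lower by adjusted p over both days, with Apob (log2 fold change -0.40) and Serpina1c (-0.54) among the lower. Endothelial markers summed to 47.1 to 71.7 FPKM in Con and 63.1 to 76.5 FPKM in CR livers (5 of 8 higher by adjusted p over both days, 0 at least 2-fold). Stellate cell markers summed to 47.5 to 60.5 and 62.7 to 83.4 FPKM (3 of 7 tested genes higher, 0 at least 2-fold). Of 7 Kupffer cell and macrophage markers, 1 was higher and 3 were lower by adjusted p. Of the kidney markers, Umod, Kap and Slc12a1 were listed at 0 in every library. The part of these shifts in the FMO differences was not tested.

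**Figure D2:**
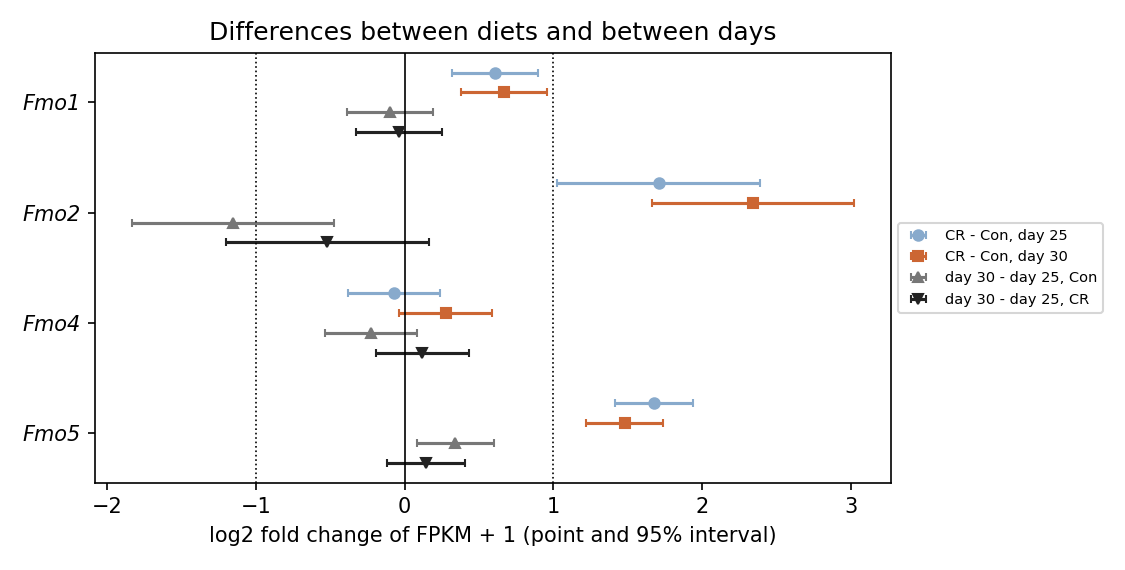
Log2 fold change of FPKM + 1 (horizontal axis) for each of the 4 genes, as CR minus Con at each day and as day 30 minus day 25 within each diet. Points are limma estimates, bars are 95% intervals, and dotted lines mark 2-fold. The diet differences of Fmo2 and Fmo5 lie right of the 2-fold line (1.71 and 2.34, 1.68 and 1.48), and the Con points of Fmo2 and Fmo5 lie on opposite sides of 0 (-1.16 and 0.34).

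The difference between diets was next compared between the days. The choice of genes is taken to have rested on CR against Con. Whether results by day also entered it is not known, and the tests by day carry that limit. The log2 fold change at day 30 minus that at day 25 was 0.63 (SE 0.44) for Fmo2, 0.35 (SE 0.20) for Fmo4, 0.061 (SE 0.19) for Fmo1 and -0.20 (SE 0.17) for Fmo5. None of the 4 passed the test (limma, Benjamini-Hochberg adjusted p = 0.9995 for each, 0 of 4 also at an unadjusted p under 0.05 and 0 of 4 by limma voom on recovered reads). Over all genes 0.00944% passed as lower and 0.0% as higher. The 95% interval for Fmo2 was wide, -0.33 to 1.60, and that for Fmo5 was -0.57 to 0.17.

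Between day 25 and day 30, values of Fmo2, Fmo4 and Fmo5 did not overlap in Con livers, and those of all 4 genes overlapped in CR livers. In Con mice every Fmo2 value at day 30 was below every value at day 25 (4.66 against 11.7 FPKM on average, a ratio of 0.399), as for 4.42% of genes. The log2 fold change was -1.16 (SE 0.31), with an unadjusted p of 0.00303 and an adjusted p of 0.453 in limma. Fmo4 values were likewise all lower at day 30 (log2 fold change -0.23, SE 0.14, adjusted p = 0.763 in limma). Fmo5 went the other way in Con mice, with every value at day 30 above those at day 25, as for 7.23% of genes (log2 fold change 0.34, SE 0.12, unadjusted p = 0.0146 and adjusted p = 0.556 in limma). No gene of the 10593 passed both thresholds in limma between the days within Con mice, although 765 had an unadjusted p under 0.05, and limma voom on recovered reads also gave 0. Within CR mice no gene of the 4 was separated by day, whereas 8.39% of genes had day 30 all below day 25 and 6.32% all above. The values were log2 fold changes of -0.52 (SE 0.31) for Fmo2, 0.14 (SE 0.12) for Fmo5, 0.12 (SE 0.14) for Fmo4 and -0.040 (SE 0.13) for Fmo1. None passed in limma (0 of 4 by adjusted p, 0 at an unadjusted p under 0.05, 0 by voom), while 0.123% of genes were higher and 0.198% lower by adjusted p. The CR over Con ratio of Fmo2, 6.00 at day 30 and 3.54 at day 25, thus stood beside mean levels that were lower at day 30 in both diets, 4.66 against 11.7 FPKM in Con and 27.9 against 41.3 FPKM in CR livers.

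The make-up of the 4 transcripts differed with diet. Their summed FPKM was 221 ± 21.5 in Con and 545 ± 41.0 in CR livers at day 25, and 237 ± 28.1 and 567 ± 64.6 at day 30 (SD, n = 3 each). Fmo5 made up 49.2% to 62.9% of this sum in the 6 Con livers and 62.7% to 71.6% in the 6 CR livers. On each day the diets were apart in the share of Fmo5, and over both days they touched, since 1 Con liver at day 30 exceeded the lowest CR liver at day 25. Fmo1 made up 34.1% to 44.4% in Con and 24.2% to 26.6% in CR livers, so its share was lower in CR livers although its FPKM was higher. The share of Fmo2 was 5.24% ± 1.39 in Con and 7.46% ± 2.51 in CR livers at day 25, and 1.93% ± 0.43 and 4.91% ± 1.37 at day 30. Fmo4 contributed 1.47% to 2.16% in Con and 0.66% to 1.21% in CR livers. Counted in reads, without scaling by length, the share of Fmo5 was 73.1% ± 4.57 in Con and 81.6% ± 2.46 in CR livers (SD, n = 6 each), since its exons are the longest.

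**Figure D3:**
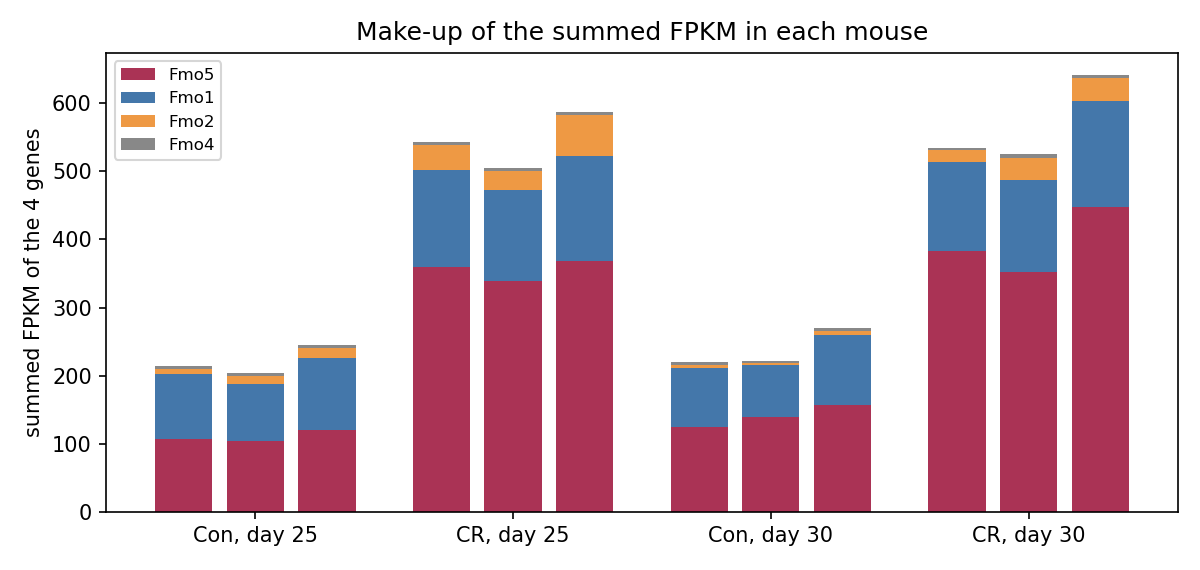
Summed FPKM of the 4 genes (vertical axis) in each of the 12 mice, with a bar per mouse divided into Fmo5, Fmo1, Fmo2 and Fmo4 from the bottom up. Con bars reach 204 to 269.5 FPKM and CR bars 505 to 642 FPKM, and most of the added height is Fmo5.

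Ratios within a liver do not depend on the depth of its library. The FPKM ratio of Fmo5 to Fmo1 was 1.12 to 1.26 in Con livers at day 25 and 1.45 to 1.85 at day 30. In CR livers it was 2.38 to 2.52 at day 25 and 2.60 to 2.95 at day 30. The diets did not overlap in this ratio, and within each diet the livers of day 30 were above those of day 25. The FPKM ratio of Fmo2 to Fmo4 was 1.04 to 3.25 in Con and 5.03 to 15.3 in CR livers, again without overlap. Other ratios overlapped between the diets over both days. For Fmo1 to Fmo4 the highest Con value was 25.7 and the lowest CR value 21.2. For Fmo2 to Fmo1 they were 0.1487 and 0.1405, though the diets were apart on each day. Fmo5 to Fmo2 at day 25 was 8.11 to 13.7 in Con and 6.096 to 12.2 in CR livers. The share of all gene pairs separated by diet or by day was not counted.

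**Figure D4:**
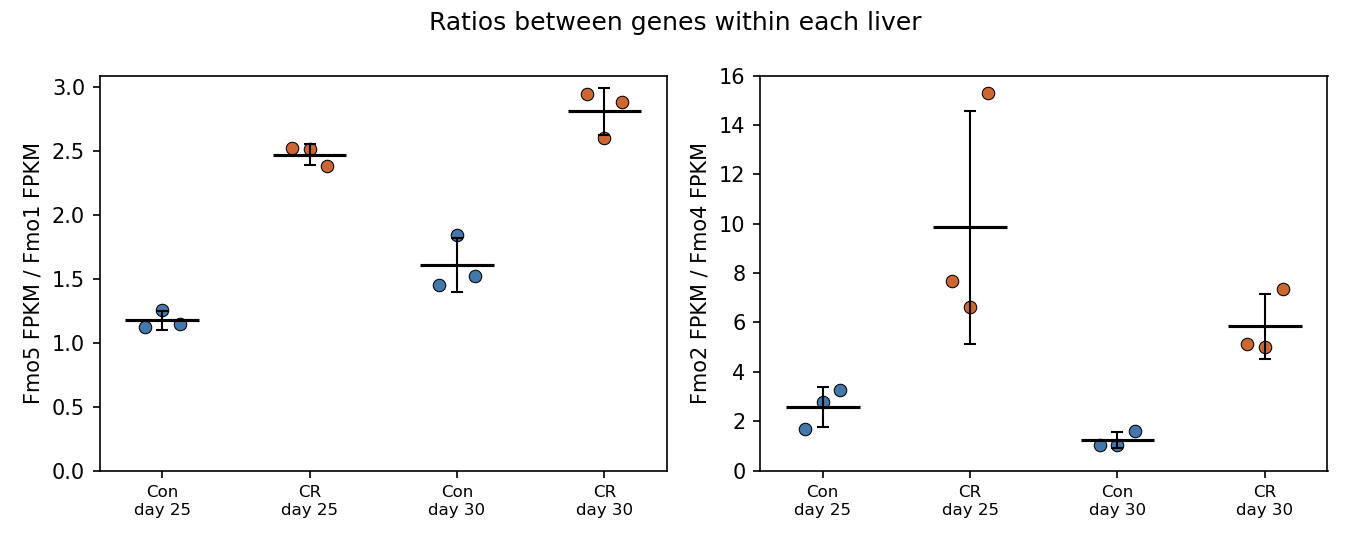
FPKM of Fmo5 over FPKM of Fmo1 (left) and FPKM of Fmo2 over FPKM of Fmo4 (right) in each mouse, by diet and day. Points are mice, horizontal lines are group means and error bars are SD of 3 mice. CR livers lie above Con livers in both panels, at 2.38 to 2.95 against 1.12 to 1.85 on the left. The ratios of Fmo5 to Fmo2, Fmo1 to Fmo4 and Fmo2 to Fmo1, which overlapped between the diets over both days, are not drawn.

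Mice of a group also differed together. In 4 of 4 groups the mouse with the highest Fmo1 also had the highest Fmo2 and Fmo5. It was the mouse numbered 3 in the labels in the 3 groups that have such numbers, and the third column in Con mice at day 30. Same-numbered Con and CR mice deviated together over all genes at day 25 (correlation 0.106 to 0.368), and the part of whatever these numbers stand for in the values below was not tested. Over the 12 libraries, after the group means were taken off, Pearson's r of log2(FPKM + 1) was 0.72 between Fmo1 and Fmo5, 0.65 between Fmo1 and Fmo2 and 0.50 between Fmo2 and Fmo5. With Fmo4 it was 0.36 for Fmo2, 0.23 for Fmo1 and -0.23 for Fmo5. These values are descriptions over 12 libraries of 4 groups, and mice share whatever sets one library apart from another.

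Each gene's pattern over the 12 libraries was compared with that of 10588 other genes with a symbol by Pearson's r of log2(FPKM + 1). For Fmo1, Fmo2 and Fmo5 the libraries form a Con and a CR cluster, so a high r mainly means a similar difference between diets, and the r within groups is given beside it. Among the 5 genes most like Fmo5 were Gab1, which encodes a docking protein of growth factor receptors (r = 0.97, within groups 0.15), the Notch ligand gene Dll1 (0.97, 0.84), the clock gene Per2 (0.97, 0.54) and Nrg4, a neuregulin (0.96, 0.16). The gene least like it was Spon2 (-0.99, -0.62). For Fmo1 the 5 were Dll1 (0.96, 0.84), the sulfotransferase gene Sult1d1 (0.96, 0.84), Gm826 (0.96, 0.75), the monocarboxylate transporter gene Slc16a7 (0.95, 0.91) and the mitophagy receptor gene Bnip3 (0.95, 0.64), and the least like was Serpina12 (-0.97, -0.83). Dll1 thus stood on the lists of both Fmo1 and Fmo5. For Fmo2 the 5 were the oxysterol-binding protein gene Osbpl1a (0.97, 0.77), the interleukin 6 receptor gene Il6ra (0.96, 0.70), Ddit4, which encodes an inhibitor of mTORC1 (0.96, 0.77), 1810011O10Rik (0.96, 0.64) and Rhobtb1 (0.95, 0.64), and the least like was Brd7 (-0.95, -0.63).

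Among these, Ddit4 followed Fmo2 in its group means too, at 4.37 and 2.05 FPKM in Con livers of day 25 and day 30 and at 27.3 and 13.7 FPKM in CR livers. Genes with an r above 0.9 numbered 93 for Fmo5, 55 for Fmo2, 42 for Fmo1 and 0 for Fmo4. The genes most like Fmo4 were Bhlhb9 (r = 0.86), Raet1a (0.81), Raet1d (0.81), Arfgap3 (0.81) and Raet1b (0.80), and the least like was Zcwpw1 (-0.81). The 3 Raet1 genes are near-identical copies whose reads may be shared, so they count as 1 pattern.

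Other FMO genes listed here gave little signal. Fmo6 reached at most 0.107 FPKM (4 reads) and was above 0 in 7 of 12 libraries, and Fmo9, Gm4846 and Gm4847 were listed at 0 in all. Among neighboring genes, Prrc2c, next to Fmo4, had a log2 fold change over both days of -0.064 (SE 0.075, limma adjusted p = 0.543). Beside Fmo5, Chd1l, a chromatin remodeler gene, was higher in CR livers by 0.41 (SE 0.077, limma adjusted p = 0.00165) and Pde4dip by 0.20 (SE 0.073, limma adjusted p = 0.0498), both far less than Fmo5 itself.

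Genes that supply or work beside the FMO enzymes were read over both days with limma and Benjamini-Hochberg adjustment. Of 10 genes tied to the supply of NADPH, the electron donor of FMOs, 3 were higher by adjusted p and 0 were lower. None was at least 2-fold different (Nadk 0.29, SE 0.072, Tkt 0.30, SE 0.069, and Nnt 0.24, SE 0.055, on the log2 scale). G6pdx (-0.19), Pgd (-0.032), Me1 (-0.045), Idh1 (0.12) and H6pd (-0.10) passed on neither side. Of 5 tested genes of flavin uptake and FAD handling, 1 was higher (Enpp1, 0.44) and 1 lower (the riboflavin transporter gene Slc52a2, -0.26), with 0 at least 2-fold different. Neither list thus approached the differences of Fmo5 and Fmo2, and the median log2 fold change was 0.0080 for the first list and -0.15 for the second.

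Of 9 genes of microsomal and related electron transfer, 3 were higher and 3 lower by adjusted p, with 1 past both thresholds. That gene was Por, the NADPH-cytochrome P450 reductase, at 283 and 167 FPKM in Con livers of day 25 and day 30 and at 603 and 525 FPKM in CR livers (log2 fold change over both days 1.40, SE 0.16, limma adjusted p = 5.2e-05). For comparison, the log2 fold change of Fmo5 over both days was 1.58. Of 15 other oxidase and reductase genes acting on amines, sulfur or aldehydes, 3 were higher and 4 lower by adjusted p and 0 were past both thresholds. Among the lower ones was the aldehyde oxidase gene Aox1 (-0.91, SE 0.14) and among the higher ones Marc2, the amidoxime reductase gene (0.44, SE 0.099).

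The last step of the path from cysteine to taurine is assigned to FMO1. Of 8 genes of cysteine and taurine handling, transporters among them, 0 were higher and 3 lower by adjusted p, with Csad past both thresholds. Cdo1 (log2 fold change over both days 0.13) and Ado (-0.013) passed on neither side. Csad, the decarboxylase that forms hypotaurine, was at 156 ± 42.2 FPKM in Con and 117 ± 25.4 FPKM in CR livers at day 25, and at 156 ± 55.4 and 30.0 ± 27.6 FPKM at day 30 (SD, n = 3 each). Its log2 fold change over both days was -1.55 (SE 0.48, limma adjusted p = 0.0261), opposite to that of Fmo1. The lower genes also included Cbs (-0.72, SE 0.080) and the taurine transporter gene Slc6a6 (-0.54, SE 0.11). Of 10 glutathione and thiol redox genes, 1 was higher and 5 lower by adjusted p, with Srxn1, which encodes sulfiredoxin, the lowest (-0.88, SE 0.096) and none past both thresholds.

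Of 19 genes of transcription factors tied to FMO or to sex-dependent liver expression, 4 were higher and 3 lower by adjusted p. The estrogen receptor gene Esr1 (log2 fold change 1.10, SE 0.12) and Cux2, a repressor gene that is high in female liver (1.43, SE 0.40), passed both thresholds, and the pregnane X receptor gene Nr1i2 was higher by 0.79 (SE 0.094). Of 12 tested genes higher in female than in male liver, 10 were higher in CR livers and 0 lower by adjusted p (median log2 fold change 1.44), and of 20 genes higher in male liver, 18 were lower and 0 higher (median -1.68). Several of both lists are multi-copy genes such as Mup and Cyp2 genes, whose counts are uncertain. Of 16 genes of the fasting and lipid response, 10 were higher and 2 lower by adjusted p, with Igfbp1 (2.03, SE 0.37), the tyrosine aminotransferase gene Tat (1.52, SE 0.21) and Plin5 (1.13, SE 0.15) among the 4 past both thresholds. These lists were written with earlier results of the same libraries in view, and over all genes 14.5% were higher and 26.1% lower by adjusted p.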

How the data were processed

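Total liver RNA of 12 mice was sequenced as paired reads of 100 bases on 1 lane. According to the study's methods and the submitters' processing notes, the authors used CASAVA 1.8.2, FastQC, BWA, mm10 and DESeq2. The authors deposited FPKM values. Per the file headers, HOMER counted exonic reads, represented each gene by 1 transcript and left libraries unscaled against each other. Whether counting used strand is not given in the sources used here.

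Steps of low FPKM values gave back whole reads (100% of 1500 values per library, within 0.1 read) and depths of 15748727 to 23345530 reads. Between 78.1% and 84.3% of reads lay on exons. The depth limits the precision of genes with few reads, and Fmo4 had the fewest of the 4 genes.

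From the FPKM deposited by the authors, log2(FPKM + 1) was computed, which understates fold changes of low genes. The 10593 genes that reached 1 FPKM in 3 or more libraries were tested with limma 3.58.1 in R 4.3.3, in 1 model of the 4 groups with a trend on expression, 2-sided. CR against Con over both days used day as a covariate. Thresholds were an adjusted p under 0.1 (Benjamini-Hochberg over all genes tested) and at least 2-fold. Groups of 3 are too small for permutation of one gene to reach 0.05, so limma p values draw on a spread pooled over groups and genes. On simulated data for CR against Con at day 30, 198 of 200 changes of 2 on the log2 scale were recovered. There was 1 false call among the unchanged genes of the 10593 simulated. The simulated noise was independent between genes, so deviations shared within a library and changes near 2-fold were not covered. Motifs and promoters came from RefSeq tables for GRCm38.p6 and exons from GENCODE M21.

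The members and lists were chosen with earlier results of these data known. Named genes were the 4 members, for each the 5 genes most like it and the 1 least like it, neighbors, other FMO genes, and list genes past both thresholds, with at most 3 per list. Other list genes named were chosen after their values were seen. Some items are not reported here.

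The numbers in the labels at day 25 went with shared deviations, with a correlation between same-numbered Con and CR mice of 0.106 to 0.368. The labels do not say that the numbers mark a shared batch. Labels of the 3 Con mice at day 30 do not tell their columns apart, so these columns were assigned to the group only. Alternatives covered the pseudocount, filter, scaling, trend, groups in the model, thresholds, the replicate block, voom on recovered reads and leaving out each mouse. Values were tabulated in Python 3.11.15 (numpy 2.4.6, pandas 2.3.3) and drawn with matplotlib 3.10.9.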

Additional observations from a re-analysis of the deposited data

How the results depend on the processing

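The CR against Con values of Fmo1, Fmo2 and Fmo5 kept their direction and side of the adjusted p of 0.1 in 171 of 171 values. These values came from the alternatives, which refit the same 12 libraries or a part of them, as when 1 mouse was left out. Fmo2 and Fmo5 stayed at least 2-fold in 114 of 114. The genes were chosen on this contrast, so these counts describe them and test nothing. The share of all genes that kept their call was not counted. Fmo4 at day 30 passed an adjusted p of 0.1 with quantile normalization (log2 fold change 0.37) and without 1 CR mouse (range without 1 mouse 0.091 to 0.44). The cause was not tested. Without 1 mouse, the sign turned for small differences of Fmo1 between days (interaction -0.043 to 0.17, within CR -0.12 to 0.013, within Con -0.21 to 0.0038) and of Fmo4 within CR (-0.065 to 0.28), none of which passed the test with all mice.

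Counts of genes past both thresholds depended on the settings. Of the 4 genes, Fmo2 and Fmo5 were past both in CR against Con wherever a minimum fold change applied. Fmo1 and Fmo4 reached 2-fold in no setting. With no minimum fold change Fmo1 is counted too, by its adjusted p. CR against Con at day 25 gave 157 genes, 276 with a pseudocount of 0.1, 302 with voom on recovered reads, 1582 with no minimum fold change and 137 to 170 without 1 mouse. At day 30 the numbers were 234, 385, 422, 2619 and 202 to 286, and over both days 176, 315, 343, 4304 and 162 to 188. The interaction gave 1 gene, 2 with a pseudocount of 0.1 or a filter of 0.1, 0 without a filter, with quantile normalization or with voom, and 0 to 4 without 1 mouse. Day 30 against day 25 within CR gave 15 genes, 3 without a filter, 6 with a filter of 0.1, 34 with no minimum fold change and 2 to 15 without 1 mouse. Within Con it gave 0 genes, 1 with a pseudocount of 0.1 or 0.5 or with TPM, and 0 to 10 without 1 mouse. TPM moved the median log2 fold change of all genes at day 30 from -0.068 to -0.11.

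With the replicate block at day 25, the counts were 164 genes at day 25 and 175 over both days, and it changed no call of the 4 genes (Fmo5 1.68, SE 0.12, and Fmo2 1.71, SE 0.26). At day 30 the column numbers went with correlations of 0.046 to 0.18 and are not a pairing given by the labels, and the block gave 236 genes.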
